A study of Macaca fascicularis with 15 samples.

Results

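The 8 genes TYR, TYRP1, DCT, SILV, MLANA, SLC45A2, SLC24A5 and GPNMB encode enzymes of melanin synthesis and proteins of the melanosome, the organelle in which melanin is made and stored. They were chosen by name, all 8 were present in every table among 12995 genes, and all 8 passed the filter on low values (1 or more groups with a mean of 1 or above). SILV is the older name of PMEL. RNA sequencing had been done on eye tissue of the cynomolgus monkey (Macaca fascicularis), and 1 table was analysed for each of 11 samples: 4 of central retina, 3 of peripheral retina, 2 of whole retina and 2 of whole eye. All animals were wild type, tissue was kept in RNALater, an RNA-preserving solution, each sample came from a single eye, and no age, batch or animal is labelled. Biological replicates are stated for eye and retina. For the regions nothing says that samples came from separate animals. The p-values then reflect sample-to-sample spread alone, some of which may be technical.

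Cells of the eye that make melanin include the retinal pigment epithelium, a single cell layer behind the photoreceptors. They also include the melanocytes of the choroid, iris and ciliary body. The marker lists used below do not cover every kind of pigment cell. The neural retina itself has no pigment cells. Tyrosinase (TYR) oxidizes tyrosine, dopachrome tautomerase (DCT) and tyrosinase-related protein 1 (TYRP1) act on later intermediates, SILV forms the fibrils on which melanin is laid down, and transporters such as SLC45A2 set the conditions inside the organelle. In RNA from a whole piece of tissue, fewer pigment cells and less RNA per pigment cell cannot be told apart.

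Values are normalized signal values of no stated unit, so each gene is compared only with itself between libraries. Absolute depth is unknown. Between 171 and 501 genes were listed at 0 in a library, the most in central retina replicate 1. The libraries labelled whole retina carried markers of tissue outside the neural retina. ACTA2, smooth muscle actin, was 723.11 and 819.60 in whole retina and 817.36 and 342.66 in whole eye. The regions held far less of it, with central retina at 5.21 to 8.91 and peripheral retina at 5.30 to 6.55. Both whole retina libraries carried such markers, so no comparison with whole retina could be made without them.

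The 8 genes were lowest in central retina, higher in peripheral retina, and far higher in whole retina and whole eye. Of the 8, 7 were lower in central than in peripheral retina and 0 higher (limma, adjusted p under 0.05), with SLC24A5 as the exception. Over all 11933 genes tested, 21.3% passed and 8.76% were lower in central retina. All 8 were lower in central than in whole retina, where 48.7% of all genes passed and 29.7% were lower. All 8 were lower in peripheral than in whole retina, where 34.2% passed and 24.3% were lower. The libraries of the compared groups did not overlap for 7 genes between the regions and for all 8 in both comparisons with whole retina. The same arrangement, every library lower in the first group, held for 15.6% of all genes in central against peripheral, 34.7% in central against whole and 35.6% in peripheral against whole retina. None of the 8 passed between whole retina and whole eye.

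**Figure D1:**
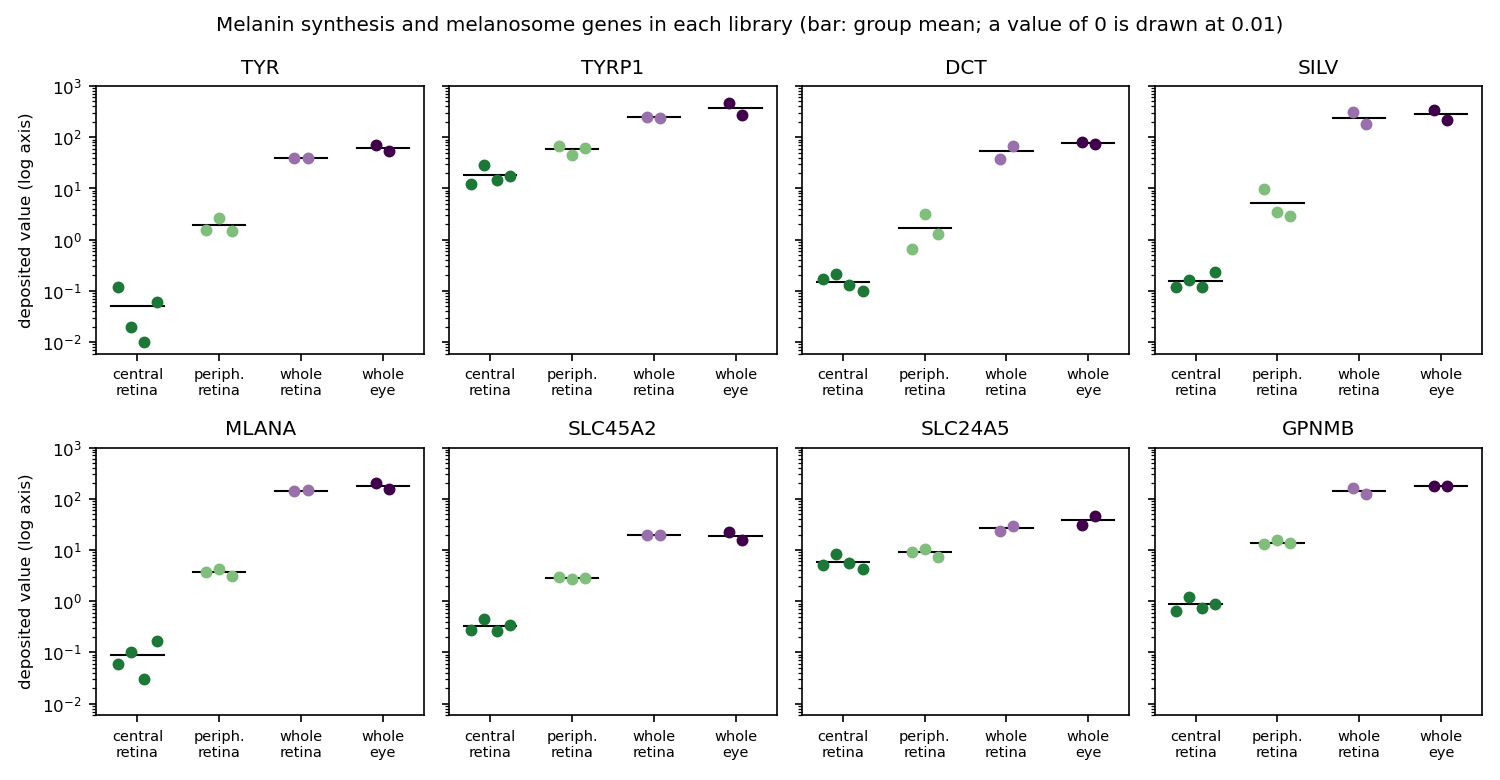
Deposited value of each gene (log axis, no stated unit) in every library of central retina, peripheral retina, whole retina and whole eye. Points are libraries and bars are group means; 1 central library has TYR listed at 0. The peripheral libraries lie above all central libraries for 7 genes, and the whole retina and whole eye libraries lie above both regions for all 8.

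Among the enzymes, TYR carries out the first and rate-limiting step. It was listed at 0.12, 0.02, 0 and 0.06 in central retina, at 1.53, 2.70 and 1.48 in peripheral retina, at 40.10 and 39.13 in whole retina, and at 69.35 and 54.82 in whole eye. The regional values did not overlap, and central retina lay at the resolution of the tables, which keep 2 decimals for these genes. On the scale of log2(value + 1), which understates changes of low genes, central minus peripheral retina was −1.44 ± 0.153 (SE; limma adjusted p = 0.000145). With a pseudocount of 0.1 it was −3.75. Central minus whole retina was −5.27 ± 0.173 (limma adjusted p = 4.17e-09) and peripheral minus whole retina −3.83 ± 0.183 (limma adjusted p = 1.1e-07).

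TYRP1, which acts late in the synthesis of brown-black eumelanin, kept a larger part of its level in the regions than TYR. It was 12.13, 28.75, 14.37 and 17.47 in central retina, 68.95, 45.53 and 60.73 in peripheral retina, 253.15 and 233.49 in whole retina, and 474.18 and 273.89 in whole eye. No 2 groups overlapped. Central retina averaged 18.2 ± 7.38 (SD, n = 4) and peripheral retina 58.4 ± 11.9 (SD, n = 3), a log2 difference of −1.68 ± 0.273 (SE; limma adjusted p = 0.00147). Relative to the whole retina mean, TYRP1 stood at 7.47% in central and 24% in peripheral retina, while TYR stood at 0.126% and 4.80%. The ratio of TYRP1 to TYR within a library was 16.9 to 45.1 in peripheral retina, 5.97 and 6.31 in whole retina, and 5.00 and 6.84 in whole eye. In central retina TYR was too near the resolution of the tables for a ratio.

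DCT, which converts dopachrome to a carboxylated intermediate, was 0.17, 0.21, 0.13 and 0.10 in central retina and 0.66, 3.15 and 1.32 in peripheral retina. It reached 38.36 and 67.22 in whole retina and 82.22 and 74.97 in whole eye. The regions did not overlap, but the peripheral libraries differed among themselves by more than those of any other gene of the 8 relative to their mean, at 1.71 ± 1.29 (SD, n = 3). The difference of central minus peripheral retina was −1.13 ± 0.271 (SE; limma adjusted p = 0.0139), and −2.61 with a pseudocount of 0.1. Against whole retina it was −5.49 ± 0.307 in central retina (limma adjusted p = 1.49e-07) and −4.36 ± 0.324 in the periphery (limma adjusted p = 2.24e-06).

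Of the structural proteins of the melanosome, SILV, the fibril protein, was 0.12, 0.16, 0.12 and 0.23 in central retina, 9.60, 3.43 and 2.92 in peripheral retina, 304.13 and 178.29 in whole retina, and 340.63 and 221.60 in whole eye. Peripheral replicate 1 stood above the other 2 peripheral libraries, and the ranges of whole retina and whole eye overlapped. Central minus peripheral retina was −2.30 ± 0.314 (SE; limma adjusted p = 0.000543), or −4.21 with a pseudocount of 0.1. Central minus whole retina was −7.66 ± 0.356 (limma adjusted p = 4.5e-08), the largest such difference among the 8 on the log2(value + 1) scale.

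MLANA, a melanosome membrane protein that binds the SILV product, followed the same order with little spread. It was 0.06, 0.10, 0.03 and 0.17 in central retina, 3.68, 4.19 and 3.17 in peripheral retina, 142.32 and 145.18 in whole retina, and 203.46 and 152.36 in whole eye. All 4 groups were separate. Central minus peripheral retina was −2.10 ± 0.126 (SE; limma adjusted p = 8.06e-06), or −4.36 with a pseudocount of 0.1. In peripheral retina MLANA averaged 2.56% of its whole retina mean, a log2 difference of −4.96 ± 0.15 (SE; limma adjusted p = 7.55e-09).

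GPNMB, a glycoprotein related to SILV and also made by macrophages, gave the largest difference between the regions on this scale. It was 0.65, 1.23, 0.73 and 0.88 in central retina, 12.83, 15.37 and 13.73 in peripheral retina, 161.72 and 123.42 in whole retina, and 177.95 and 177.33 in whole eye. The 4 groups did not overlap. Central retina averaged 6.24% of peripheral retina, with central minus peripheral at −3.01 ± 0.135 (SE; limma adjusted p = 2.05e-06). Of 13 macrophage and microglia markers listed, 8 were tested. Between the regions 0 passed by limma and 1 had an unadjusted p under 0.05, where 21.3% of all genes passed. Summed over the list, central libraries held 29.2 to 42.9 and peripheral libraries 35.0 to 54.1, ranges that overlap. LYZ, the highest of the list in every library, weighs most in these sums. LYZ ran from 11.82 to 27.05 in central libraries and from 14.20 to 30.44 in peripheral ones. Every central library lay below every peripheral one for 2 of the 8 markers (CSF1R and C1QC), and above for 0. CSF1R was 2.37 to 2.90 against 3.74 to 6.36 (limma adjusted p = 0.0547). C1QC was 1.88 to 3.76 against 4.07 to 5.90 (limma adjusted p = 0.254). In whole retina the list summed to 206.1 and 519.9. All 8 macrophage markers were lower in each region than in whole retina. Over all genes 29.7% were lower in central and 24.3% in peripheral than in whole retina.

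Both transporters were lower in the regions, one of them by far less. SLC45A2, a melanosome transporter that influences the organelle's pH, was 0.28, 0.44, 0.26 and 0.34 in central retina, 3.00, 2.74 and 2.86 in peripheral retina, 19.34 and 19.19 in whole retina, and 22.04 and 15.36 in whole eye. The 2 regions were separate from each other and from the rest, whereas the whole retina values fell between those of the 2 whole eyes. Central minus peripheral retina was −1.54 ± 0.128 (SE; limma adjusted p = 5.2e-05), or −2.80 with a pseudocount of 0.1. SLC45A2 kept 1.71% of its whole retina mean in central and 14.9% in peripheral retina.

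SLC24A5, a potassium-dependent sodium/calcium exchanger, was the 1 gene of the 8 that did not pass between the regions. It was 5.13, 8.38, 5.59 and 4.23 in central retina, 9.19, 10.40 and 7.18 in peripheral retina, 23.62 and 29.90 in whole retina, and 31.24 and 45.82 in whole eye. Central replicate 2 lay within the peripheral range and the other 3 central libraries below it. The log2 difference was −0.56, with a 95% confidence interval of −1.02 to −0.10 (limma adjusted p = 0.0817). Without central retina replicate 2 it passed (limma adjusted p = 0.0198), and over all alternatives tried the adjusted p ran from 0.0198 to 0.264. Against whole retina the difference was −2.05 ± 0.238 for central (SE; limma adjusted p = 3.49e-05) and −1.49 ± 0.251 for peripheral libraries (SE; limma adjusted p = 0.000893), the smallest among the 8.

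**Figure D2:**
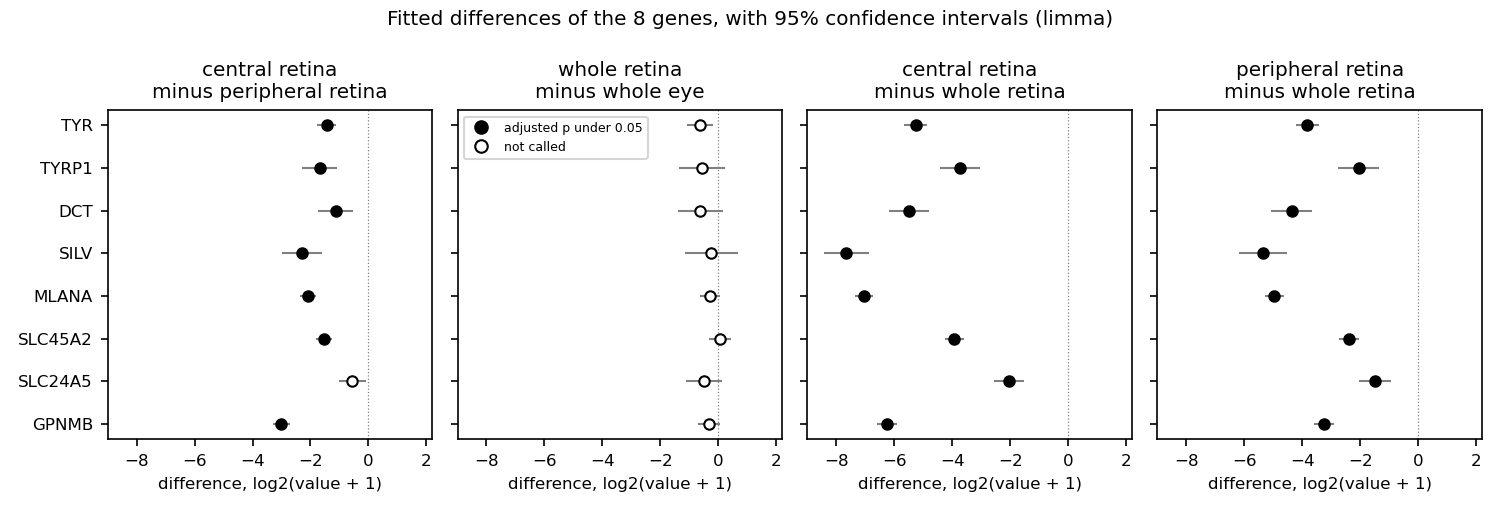
Fitted difference of each gene on the scale of log2(value + 1), first named group minus second, in the 4 comparisons. Bars are 95% confidence intervals, filled points have a limma adjusted p under 0.05, and open points do not. All 8 genes are filled in both comparisons with whole retina, and none is filled between whole retina and whole eye.

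Whole retina and whole eye held the 8 genes at levels that the test did not separate. Of the 8 genes, 0 passed by limma, 1 (TYR) had an unadjusted p under 0.05, and 7 had a negative difference of whole retina minus whole eye. Over all genes 2.27% passed in either direction and 2.1% were lower in whole retina. TYR averaged 39.6 ± 0.686 in whole retina and 62.1 ± 10.3 in whole eye (SD, n = 2 each), a log2 difference of −0.63 with a 95% interval of −1.07 to −0.19 (limma adjusted p = 0.228). The interval of SLC45A2 ran from −0.31 to 0.43 around 0.06, and that of SILV from −1.14 to 0.67 around −0.24. For TYRP1 the interval was −1.35 to 0.22, which leaves room for a sizeable difference. For 6 of the 8 both whole retina libraries lay below both whole eye libraries, against 17.6% of all genes tested, and there were 2 libraries a group.

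The median log2 difference over the 8 genes was −1.61 for central minus peripheral retina, where the median of all genes was −0.01. It was −5.38 for central and −3.54 for peripheral minus whole retina, with medians over all genes of −0.10 and −0.08. These last 2 comparisons share the whole retina libraries. Under quantile normalization the median of all genes turned to 0.12 and 0.16, so that of all calls 59.5% and 60.9% were higher in the region, against 38.9% and 28.8% as deposited. With median-ratio scaling the share was 47.1% and 41.2%. The 16 differences of the 8 genes against whole retina kept their sign and passed under both scalings.

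The share of the whole retina level kept in each region sorted the 8 genes into unequal groups. In central retina 6 genes (TYR, DCT, SILV, MLANA, SLC45A2 and GPNMB) lay under 5% of whole retina, from 0.0626% for MLANA to 1.71% for SLC45A2. TYRP1 at 7.47% and SLC24A5 at 21.8% lay above. In peripheral retina TYR, DCT, SILV and MLANA lay under 5%, and GPNMB at 9.80%, SLC45A2 at 14.9%, TYRP1 at 24% and SLC24A5 at 33.3% followed. Differences between genes in this share were not tested.

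**Figure D3:**
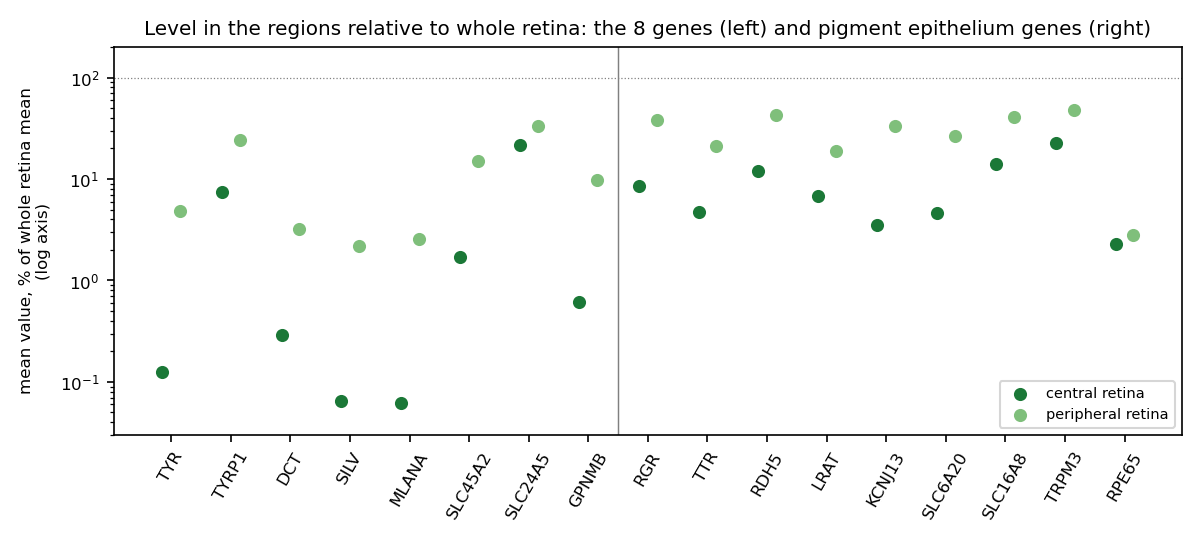
Mean value in central and peripheral retina as a percentage of the whole retina mean (log axis; dotted line, 100%), for the 8 genes left of the vertical line and 9 pigment epithelium genes right of it. Among the 8 genes the central values run from 0.0626% to 21.8%, and among the pigment epithelium genes from 2.30% to 22.6%.

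Some of the genes have partners that bear on how their values can be read. The names TYR, TYRP1 and DCT share their start with other names in the tables, so a mix-up of rows by name could touch them. TYRO3, a receptor kinase, was 6.66 to 7.47 in central retina, 10.43 to 15.64 in peripheral retina, 10.82 and 13.11 in whole retina, and 9.59 and 10.57 in whole eye. TYROBP, an adaptor of myeloid cells, was 1.36 to 2.02 in central retina, 1.83 to 2.58 in peripheral retina, 18.30 and 48.76 in whole retina, and 15.04 and 17.54 in whole eye. Neither TYRO3 nor TYROBP averaged higher in central than in peripheral libraries. Names that start with DCT are DCTD, DCTN1 to DCTN6 and DCTPP1, and among them the dynactin gene DCTN1 was 120.44 to 159.67 in central retina and 63.14 to 72.64 in peripheral retina. Its whole retina values, 57.99 and 77.02, were close to the peripheral ones. Whether any row was mixed up was not tested.

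In the RefSeq annotation of the assembly T2T-MFA8v1.1, which may differ from the one behind the tables, SLC24A5 overlaps MYEF2, SILV overlaps DGKA and MLANA overlaps BRD10. Whether reads were counted by strand is not stated, so reads of such pairs may not be separable. MYEF2, which encodes a regulator of transcription, was 21.52 to 32.95 in central retina, 28.39 to 31.03 in peripheral retina, 16.77 and 23.96 in whole retina, and 20.75 and 29.34 in whole eye. The ratio of SLC24A5 to MYEF2 was 0.196 to 0.254 in central retina, 0.253 to 0.352 in peripheral retina, 1.25 and 1.41 in whole retina, and 1.51 and 1.56 in whole eye. Whether MYEF2 reads form part of the SLC24A5 value in the regions was not tested. DGKA, a diacylglycerol kinase, was 2.03 to 3.47 in central retina and 1.53 to 1.81 in peripheral retina, the opposite order to SILV (limma adjusted p = 0.152). BRD10 was not analysed here.

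**Figure D4:**
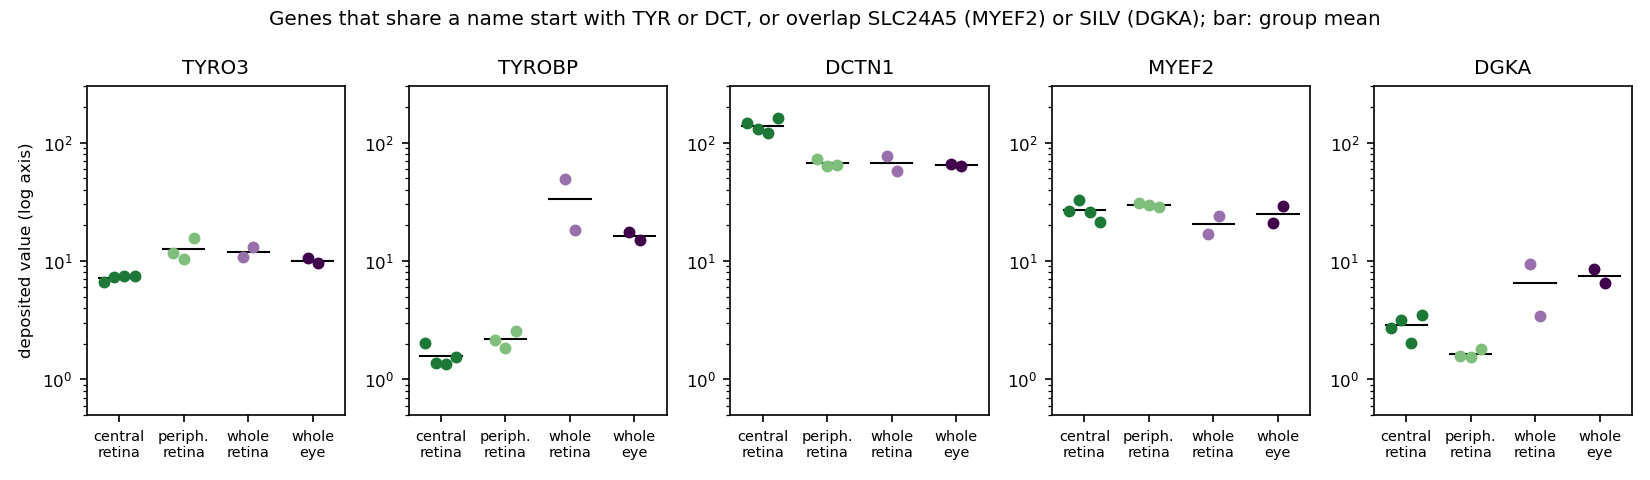
Deposited value (log axis) in each library of TYRO3, TYROBP and DCTN1, whose names share their start with TYR or DCT, and of MYEF2 and DGKA, which overlap SLC24A5 and SILV. Points are libraries and bars are group means. TYROBP is 1.36 to 2.58 in the 7 regional libraries and 15.04 to 48.76 in the other 4, while MYEF2 stays between 16.77 and 32.95 in all 11.

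Genes of melanosome assembly and transport serve other organelles in many cell types as well. Of 31 listed, 24 were tested, and between the regions 3 were lower in central retina (HPS3, RAB38 and MREG) and 1 higher (SYTL2). Their median log2 difference was −0.01, the same as over all genes, of which 21.3% passed in either direction. RAB38, a small GTPase that routes enzymes to the melanosome, was 1.48 to 2.35 in central retina and 3.27 to 4.16 in peripheral retina (log2 difference −0.57, limma adjusted p = 0.0179). HPS3, a subunit of a trafficking complex whose name shares its start with other names, was 4.24 to 6.10 against 7.22 to 7.93 (−0.51, limma adjusted p = 0.0136). MREG, melanoregulin, a regulator of melanosome transport, was 38.39 to 44.40 in central retina and 51.42 to 53.29 in peripheral retina (−0.32, limma adjusted p = 0.0414). SYTL2, an effector of the RAB27 GTPases, was 1.62 to 2.80 against 0.80 to 1.20 (0.62, limma adjusted p = 0.0138).

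Against whole retina 9 of the 24 were lower and 3 higher in central retina, where 29.7% of all genes were lower and 18.9% higher. In peripheral retina 9 were lower and 3 higher, where 24.3% of all genes were lower and 9.83% higher. RAB27A, the GTPase that ties melanosomes to their motor, was 0.94 to 1.67 in central retina, 1.13 to 1.89 in peripheral retina, and 12.13 and 13.36 in whole retina. RAB32, a relative of RAB38, was 3.80 to 5.49 in central retina, 3.87 to 4.26 in peripheral retina, and 22.79 and 25.35 in whole retina. Neither RAB27A nor RAB32 passed between the regions (limma adjusted p = 0.333 and 0.482). GPR143, the ocular albinism receptor of melanosomes (a shared name start), was 0.45 to 3.13 in central retina, 1.09 to 1.42 in peripheral retina, and 6.54 and 8.70 in whole retina. Its ranges in the regions overlapped (limma adjusted p = 0.909). The genes higher than in whole retina were MREG, HPS4 and AP3D1 in central and MYO7A, MREG and HPS4 in peripheral retina. MREG averaged higher in both regions than in whole retina, where it was 31.71 and 35.28 (log2 differences 0.32 and 0.64, limma adjusted p = 0.0333 and 0.00157).

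The transcription factors and signals of pigment cells were also uneven. Of 12 listed, 10 were tested, and between the regions 2 were higher in central retina (MITF and PAX6) and 1 lower (OTX2). Over all genes 12.5% were higher in central retina and 8.76% lower. MITF, the transcription factor that drives TYR, TYRP1 and DCT in pigment cells, ran opposite to them between the regions. It was 5.73, 6.17, 6.88 and 6.55 in central retina, 3.90, 3.82 and 3.22 in peripheral retina, 13.39 and 9.55 in whole retina, and 13.78 and 8.05 in whole eye. Central minus peripheral retina was 0.66 (limma adjusted p = 0.0205), and both regions were lower than whole retina, at −0.75 in central (limma adjusted p = 0.00811) and −1.41 in peripheral retina (limma adjusted p = 0.000323). OTX2, a factor of photoreceptors, bipolar cells and pigment epithelium, was 63.23 to 85.81 against 97.87 to 107.77 (−0.44, limma adjusted p = 0.0341). PAX6, used by several retinal neurons, was 44.21 to 55.05 against 36.51 to 38.61 (0.40, limma adjusted p = 0.0187). EDN3, a ligand of melanocyte precursors, was 0.42 to 0.62 in central retina, 0.49 to 2.47 in peripheral retina, and 56.92 and 81.79 in whole retina. In central retina MITF and EDN3 were the 2 genes of this list lower than in whole retina, where 29.7% of all genes were lower. In peripheral retina MITF, EDN3 and TFEB were the 3, where 24.3% of all genes were lower.

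Pigment epithelium markers moved with the 8 genes between the regions. Of 12 listed, 9 were tested, and 8 of the 9 were lower in central retina, with a median of −1.78. Over all genes 8.76% were lower in central retina, and the median was −0.01. RGR, an opsin of pigment epithelium and Müller glia, was 11.53 to 21.55 in central retina, 61.02 to 86.39 in peripheral retina, and 168.16 and 202.28 in whole retina. KCNJ13, SLC6A20 and RDH5 followed the same order, the first 2 with shared name starts (limma adjusted p = 5.2e-05, 0.00016 and 0.000415 between the regions). Summed over the list, values were 74.8 to 173 in central retina, 401 to 592 in peripheral retina, 2048 to 2234 in whole retina and 2130 to 2327 in whole eye. TTR, the highest of the list in every library, weighs most in these sums. It was 33.81 to 95.13 in central retina, 227.45 to 345.20 in peripheral retina, and 1421.87 and 1289.14 in whole retina. Relative to whole retina, the median of the 9 genes was 6.85% in central and 33.2% in peripheral retina, against 0.451% and 7.30% for the 8 melanosome genes. That difference in share was not tested. RPE65, whose name starts with that of RPE, was 4.48 to 6.40 in central retina and 6.18 to 7.48 in peripheral retina and did not pass (limma adjusted p = 0.185). In whole retina RPE65 was 223.79 and 267.92, so it kept 2.3% in central and 2.8% in peripheral retina. These were the lowest shares of the 9 genes. In peripheral retina RPE65 was the 1 gene of the 9 under 5%, as were TYR, DCT, SILV and MLANA among the 8 melanosome genes.

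Melanocyte markers differed among themselves in the regions. SOX10, a factor of neural crest cells including melanocytes and Schwann cells, was 0.52 to 0.70 in central retina, 1.13 to 1.89 in peripheral retina, 20.57 and 37.32 in whole retina, and 14.54 and 31.17 in whole eye. Of 4 melanocyte genes tested, 1 was lower in central than in peripheral retina (KIT, a shared name start), against 8.76% of all genes. KIT was 6.72 to 11.06 against 13.81 to 16.98 (limma adjusted p = 0.00262). In whole retina KIT was 15.69 and 13.40, so peripheral retina averaged 106% of it. ERBB3, a receptor kinase of neural crest cells, stood at 65.6% of its whole retina mean in central and 73.1% in peripheral retina. The median over the 4 genes was 38.5% in central and 51.0% in peripheral retina. All 4 were lower in central than in whole retina, where 29.7% of all genes were lower. In peripheral retina 3 of 4 (SOX10, EDNRB and ERBB3) were lower than in whole retina, against 24.3% of all genes. Summed over the list, values were 20.6 to 27.7 in central retina, 31.2 to 36.7 in peripheral retina, 64.4 to 94.1 in whole retina and 73.6 to 104.5 in whole eye.

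Markers of the ciliary body and the vitreous matrix were lower in central than in peripheral retina in 4 of 4 cases. For this and the lists below, 21.3% of all genes passed between the regions and 8.76% were lower in central retina. OPTC, opticin, was 0.10 to 0.24 in central retina, 8.43, 71.95 and 36.27 in peripheral retina, and 500.91 and 545.94 in whole retina (limma adjusted p = 0.000147 between the regions). COL2A1, COL9A1 and MYOC passed as well (limma adjusted p = 5.2e-05, 0.000147 and 0.000325). In peripheral against whole retina, 2 of the 4 (OPTC and MYOC) were lower, where 24.3% of all genes were lower, and COL9A1 and COL2A1 did not pass. COL2A1 was 10.15 to 20.91 in peripheral retina and 14.53 and 15.50 in whole retina. Like OPTC, DCT was lowest in peripheral replicate 1, at 0.66, and highest in replicate 2, at 3.15. SILV was highest in replicate 1, and MLANA, GPNMB and SLC45A2 spread little between the 3 libraries. Of 9 fibrous stroma genes, 3 were lower in central retina (FMOD, OGN and LUM), with sums of 8.43 to 13.2 in central retina, 15.8 to 22.5 in peripheral retina and 429.5 to 478 in whole retina. Of 4 smooth muscle genes 0 passed between the regions by limma (0 at an unadjusted p under 0.05), with central sums of 15.2 to 22.4 and peripheral sums of 11.9 to 19.5 against 1344 to 1619 in whole retina. Of 5 endothelial genes 1 was lower in central retina (KDR), and of 7 rod genes 4 were (CNGA1, SAG, NR2E3 and PDE6A). The part of these tissues in the differences of the 8 genes was not tested.

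**Figure D5:**
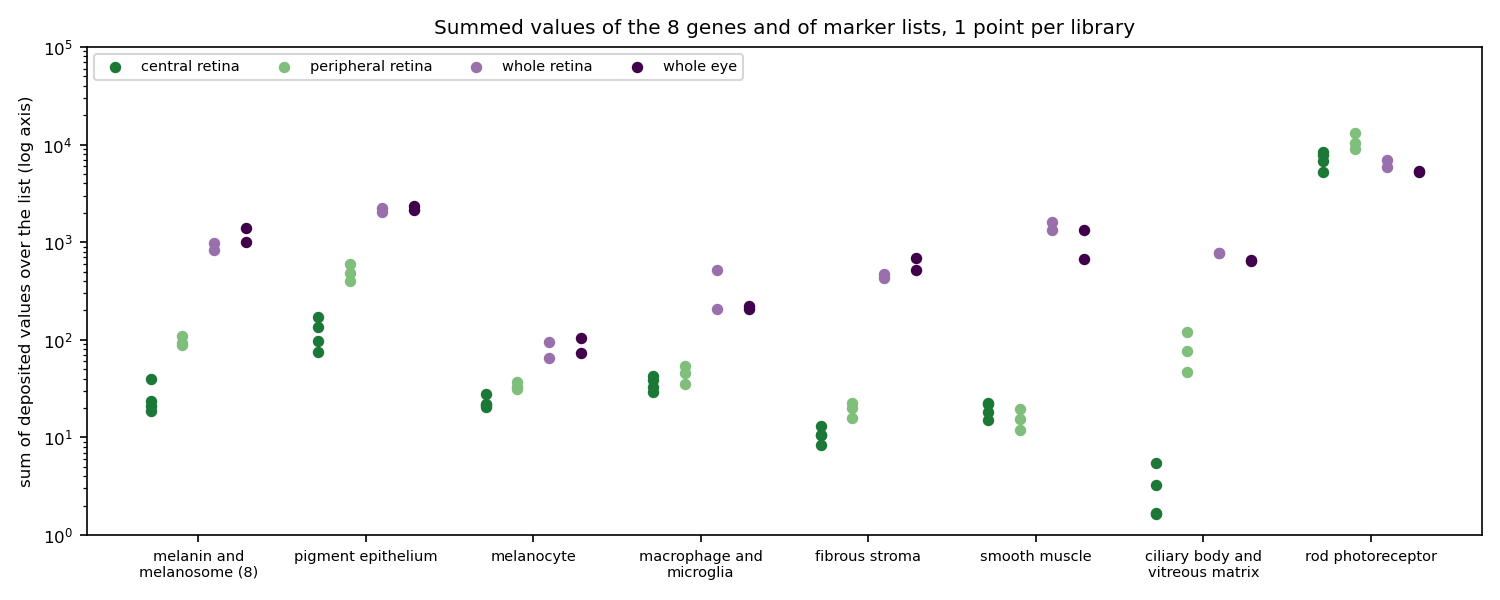
Sum of deposited values (log axis) over the 8 genes and over 7 marker lists, 1 point per library, for central retina, peripheral retina, whole retina and whole eye. The 8 genes sum to 18.7 to 39.3 in central, 87.5 to 109 in peripheral, 836 to 983 in whole retina and 1016 to 1401 in whole eye. Rod markers, 7 genes, sum to 5206 or more in every library.

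Across the 11 libraries the 8 genes followed one profile. Pearson's r between log2 values was 0.941 to 0.997 over the 28 pairs, with a median of 0.974, as a description of libraries that share their group. SLC24A5 was least like the mean profile of the 8, at 0.971, and MLANA most, at 0.998. Among 5999 other named genes whose mean reached 10 in some group, the 10 most like that mean profile were SDC2, GPX8, PLBD1, LASS2, MSRB3, TMEM43, SFRP4, GRAMD3, BMP4 and SUCLG2, at 0.992 to 0.997. SDC2, a cell surface proteoglycan, was 12.87 to 15.89 in central retina, 20.99 to 23.42 in peripheral retina, 62.82 and 65.02 in whole retina, and 76.10 and 78.71 in whole eye. SFRP4, a secreted Wnt antagonist, was the gene most like MLANA, at 0.998. It was 0.01 to 0.20 in central retina, 2.25 to 2.46 in peripheral retina, 88.37 and 123.47 in whole retina, and 97.49 and 150.02 in whole eye. GJA1, a gap junction protein gene with a shared name start, was the gene most like GPNMB, at 0.999. The closest genes to the others were GPX8 for TYR, SULF1 for TYRP1, BOC for DCT, PLBD1 for SILV, PRSS23 for SLC45A2 and GNAI3 for SLC24A5.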

How the data were processed

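The deposited tables, 1 per library, list signal values that their headers call normalized, and how the authors normalized them is not stated. The submitters' processing notes name the aligner GSNAP and the read counter HTSeq, without versions. Genome build and annotation: not given in the sources used here. Of 13083 entries, 27 marked ND or blank and 61 exact duplicates were dropped. Groups follow the labelled tissue, and 4 further records, which share a source name with an analysed whole eye or whole retina, were not analysed here. limma 3.58.1 (R 4.3.3) was fitted to log2(value + 1) over 4 groups, with a variance trend and 1 variance per gene shared by all groups, on the 11933 genes whose mean reached 1 in any group. Tests are two-sided, with Benjamini-Hochberg adjustment over all genes tested and a threshold of 0.05. The fit was checked on simulated data. The tables give no read totals, so absolute depth is unknown. Low values move in steps that depend on gene and library, and whole reads could not be recovered.

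The 8 genes and all lists were chosen with earlier results of these data known. Named genes are the 8, names sharing a start with them, overlapping genes, and the 10 genes most correlated with them and 1 per gene. Up to 4 genes per list were named by smallest p between the regions. LYZ and TTR, named as the highest of their lists, and others named for their comparison with whole retina, were chosen after values were seen. The lists cover melanosome assembly and transport, pigment cell factors, and markers of melanocytes, pigment epithelium, macrophages, stroma, endothelium, smooth muscle, ciliary body and rods. One listed gene is not reported here. Tables and plots used numpy 2.4.6, pandas 2.3.3 and matplotlib 3.10.9.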

Additional observations from a re-analysis of the deposited data

How the results depend on the processing

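Each comparison was refitted under 19 alternatives, 11 of which leave out 1 library each. The 16 differences of the 8 genes against whole retina, and the 7 calls between the regions, passed in the same direction in all 19. The adjusted p of DCT between the regions came closest to the threshold, at 0.0458. SLC24A5 between the regions passed in 2 of 19, without central retina replicate 2 and with the replicate block (limma adjusted p = 0.0425). Deviations of same-numbered central and peripheral libraries correlated at −0.138, −0.0609 and 0.357 for replicates 1, 2 and 3, so the numbers were not taken to pair the samples. Central 1 was closest to peripheral 2 (0.363), central 2 to peripheral 1 (0.347) and central 3 to peripheral 3 (0.357). All other pairs of replicates 1 to 3 were negative, from −0.243 to −0.0609. The deviations were taken from group means and sum to 0 within a group. A positive pair thus pushes others negative, and the signs are not independent. Central retina replicate 4 was not part of these pairs. Whether the closest libraries came from the same animal was not tested. As no label gives such a pairing, no fit used it. Same-numbered whole retina and whole eye libraries correlated at 0.19 and the other pairs at −0.19. With 2 libraries a group these are 1 value up to sign. The replicate block gave 2070 calls between the regions and changed no other call on the 8 genes. Between whole retina and whole eye, where 0 of the 8 passed in any alternative, the difference of SILV ran from −0.62 to 0.15 with 1 library left out, positive at 0.15 without whole retina replicate 2 and at 0.07 without whole eye replicate 1. That of SLC45A2 ran from −0.19 (without whole eye replicate 2) to 0.31; the cause was not tested. Over all genes, the 271 calls between whole retina and whole eye became 143 with a mean of at least 5 (fewer genes tested), 170 with only the 2 groups (fewer libraries in the fit), and 244 to 784 with 1 library left out, the most without whole retina replicate 2. The 2538 calls between the regions became 1328 to 2889 with 1 library left out, with 1328 without peripheral retina replicate 2 and 1654 without central retina replicate 4. With 1 whole eye or whole retina left out, the lone library is assumed to vary like the other groups. Values under about 0.1 are limited by the 2 decimals of the tables.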

Other observations

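Within a group, the 8 genes did not all peak in the same library. In central retina, replicate 2 was highest for 5 of the 8 (TYRP1, DCT, SLC45A2, SLC24A5 and GPNMB) and for 6 of 9 pigment epithelium genes (RGR, TTR, RDH5, LRAT, KCNJ13 and SLC16A8). SILV and MLANA were highest in central replicate 4, and TYR in central replicate 1. In peripheral retina, replicate 2 was highest for 5 of the 8 (TYR, DCT, MLANA, SLC24A5 and GPNMB) and lowest for TYRP1, while replicate 1 was highest for SILV and TYRP1 and lowest for DCT. These are single libraries and were not tested.

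Myeloid genes were higher in whole retina replicate 1 than in whole retina replicate 2. C1QA was 97.01 against 24.15, CSF1R 50.60 against 21.62 and TYROBP 48.76 against 18.30. GPNMB, which macrophages also make, was 161.72 against 123.42 in the same libraries. Of the 8 melanosome genes, TYR, TYRP1, SILV and SLC45A2 were also higher in whole retina replicate 1, with SILV at 304.13 against 178.29. DCT, MLANA and SLC24A5 were higher in whole retina replicate 2. Whether GPNMB followed the myeloid genes was not tested.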
